A study of Mus musculus with 24 samples.

Results

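The collagen chain genes are the protein-coding genes of the mouse whose symbol is Col, a type number, the letter a and a chain number. The rule used that symbol alone and no expression value, but the set was chosen with earlier results of these data known. Among 45777 genes in the table, of which 21949 were protein coding, 44 genes of 27 collagen types met the rule. Chains were grouped by known structure into 11 fibrillar chains, 6 of collagen IV, 6 of collagen VI, 1 of collagen VII, 3 of the network collagens VIII and X, 9 fibril-associated (FACIT) chains, 4 transmembrane chains, 2 multiplexins and 2 others. The order of the groups here follows those roles.

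Collagens are the main structural proteins of connective tissue: their chains wind together into a helix, which assembles into fibrils, into the sheets of basement membranes or into beaded filaments. In skin, fibroblasts of the dermis secrete most fibrillar collagen, while keratinocytes and dermal cells together build the basement membrane between epidermis and dermis. A dorsal root ganglion (DRG) is a cluster of sensory nerve cell bodies beside the spinal cord, wrapped in collagen-rich sheaths, with thin collagen layers around its nerve fibres, glia and vessels.

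RNA with a polyA tail was sequenced from skin and DRG of female BALB/c mice aged 6 weeks, in 6 libraries each of model skin, control skin, model DRG and control DRG. The model mimics rosacea, an inflammatory disease of facial skin: per the series' text, LL37, an antimicrobial peptide, was injected into the dermis at 320 µM in 40 µL, 2 times daily for 2 days, and DRG was taken on day 4. That text also has gabapentin given by mouth at 100 mg/kg from day 3, but no label says which animals received it, what the control mice received or when skin was taken. The labels do not say that libraries of a group came from different animals, so each p-value measures only the spread between these samples, which may be technical. The model is a short injection course, so the injected site is not chronic rosacea skin.

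Library totals ranged from 45238735 to 68396846 counts. Markers fitted the labelled tissues: basal keratinocyte markers summed to 6094 to 13734 CPM (counts scaled to library size) in model skin and 8394 to 14072 CPM in control skin, and sensory neuron markers to 9050.4 to 11724 CPM in model DRG and 9765 to 13061 CPM in control DRG. Control skin 2 stood apart, with hair follicle markers at 751 CPM where the other 5 control skin libraries had 17063 to 25859.5 CPM; calls on chains that change without it are given with those chains. In bulk tissue, fewer cells of a type and less RNA per cell cannot be told apart.

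The bases upstream of the annotated start are shown for 4 chains on which the results turn: Col3a1, the most abundant chain in skin, Col1a2, the next most abundant, and the neighbours Col6a1 and Col6a2, which encode partner chains. For Col6a2, which has 2 windows in the RefSeq table, the farther upstream of the 2 is shown. Each line holds 250 bases that end at the start site in RefSeq (build GRCm38.p6), 5′ to 3′ on the gene's strand. Capitals mark every match, on either strand, of any of 4 motifs. The TATA box was searched as TATAAA, the CCAAT box by the letters of its name, the GC box as GGGCGG and the AP-1 site as TGANTCA, and no matches of different motifs overlapped in these windows.
Col3a1 (plus strand, chr1:45311288-45311537): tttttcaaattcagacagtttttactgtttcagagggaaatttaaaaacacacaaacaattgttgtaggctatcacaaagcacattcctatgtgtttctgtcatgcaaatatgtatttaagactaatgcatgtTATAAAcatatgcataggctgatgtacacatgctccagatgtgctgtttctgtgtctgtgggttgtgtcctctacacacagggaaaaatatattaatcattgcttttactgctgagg
Col1a2 (plus strand, chr6:4505368-4505617): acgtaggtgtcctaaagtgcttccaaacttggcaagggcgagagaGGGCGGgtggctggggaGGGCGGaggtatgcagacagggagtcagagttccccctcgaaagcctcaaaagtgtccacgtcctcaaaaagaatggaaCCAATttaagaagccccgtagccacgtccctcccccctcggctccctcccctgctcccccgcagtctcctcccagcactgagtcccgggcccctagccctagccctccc
Col6a1 (minus strand, chr10:76726045-76726294): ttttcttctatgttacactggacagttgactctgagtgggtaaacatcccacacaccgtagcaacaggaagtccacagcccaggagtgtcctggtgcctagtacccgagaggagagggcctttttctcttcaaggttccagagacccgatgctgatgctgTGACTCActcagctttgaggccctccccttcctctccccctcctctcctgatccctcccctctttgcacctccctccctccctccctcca
Col6a2 (minus strand, chr10:76623631-76623880): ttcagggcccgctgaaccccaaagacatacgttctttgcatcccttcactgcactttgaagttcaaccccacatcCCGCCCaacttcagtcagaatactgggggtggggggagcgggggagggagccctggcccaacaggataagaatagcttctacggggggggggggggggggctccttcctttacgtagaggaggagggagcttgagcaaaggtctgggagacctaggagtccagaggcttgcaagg
No motif stood in all 4 windows. Col3a1 had only a TATA box, Col1a2 a CCAAT box and 2 GC boxes, Col6a1 an AP-1 site and Col6a2 a GC box. Over 38 windows of 35 collagen genes, 57.9% held a GC box, against 32.7% of all 32851 windows. A TATA box stood in 13.2% against 12.4%, a CCAAT box in 34.2% against 33.8%, and an AP-1 site in 2.63% against 6.75%. These are letter matches and say nothing of factor binding.

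The first comparison asked how collagen transcripts in model skin differed from those in control skin. Collagen RNA was more abundant in model skin: all 44 chains together took 1.22% to 2.16% of counts there (median 1.38%) and 0.670% to 1.20% in control skin (median 0.867%), with no overlap. The rise covered Col1a1, the fibrillar collagens III and V, 5 of 6 chains of collagen VI, the ubiquitous collagen IV pair and several minor chains, by 1.53-fold to 5.70-fold. Collagens VII and XVII, which tie the epidermis to the dermis, were not called, and Col4a5, a chain of the epidermal basement membrane, fell. Calls rest on the quasi-likelihood test of edgeR, with p-values adjusted by Benjamini-Hochberg over every tested gene and a limit of 0.05.

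Of 43 chains with enough counts to be tested in skin, 19 rose, or 44.2%, where 14.1% of all 19526 genes tested did. A single chain fell, where 5.82% of all genes did. The median log2 fold change of the chains was 0.48, and that of all genes -0.02. At least 2-fold rises numbered 13, against 8.41% of all genes. Only Col9a1, with at most 1.34 CPM in any skin library, was not tested. In 7 chains all 6 model skin libraries lay above all 6 control skin libraries, a pattern of 7.25% of all genes: Col3a1, Col5a1, Col5a2, Col6a2, Col6a5, Col6a6 and Col28a1.

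**Figure D1:**
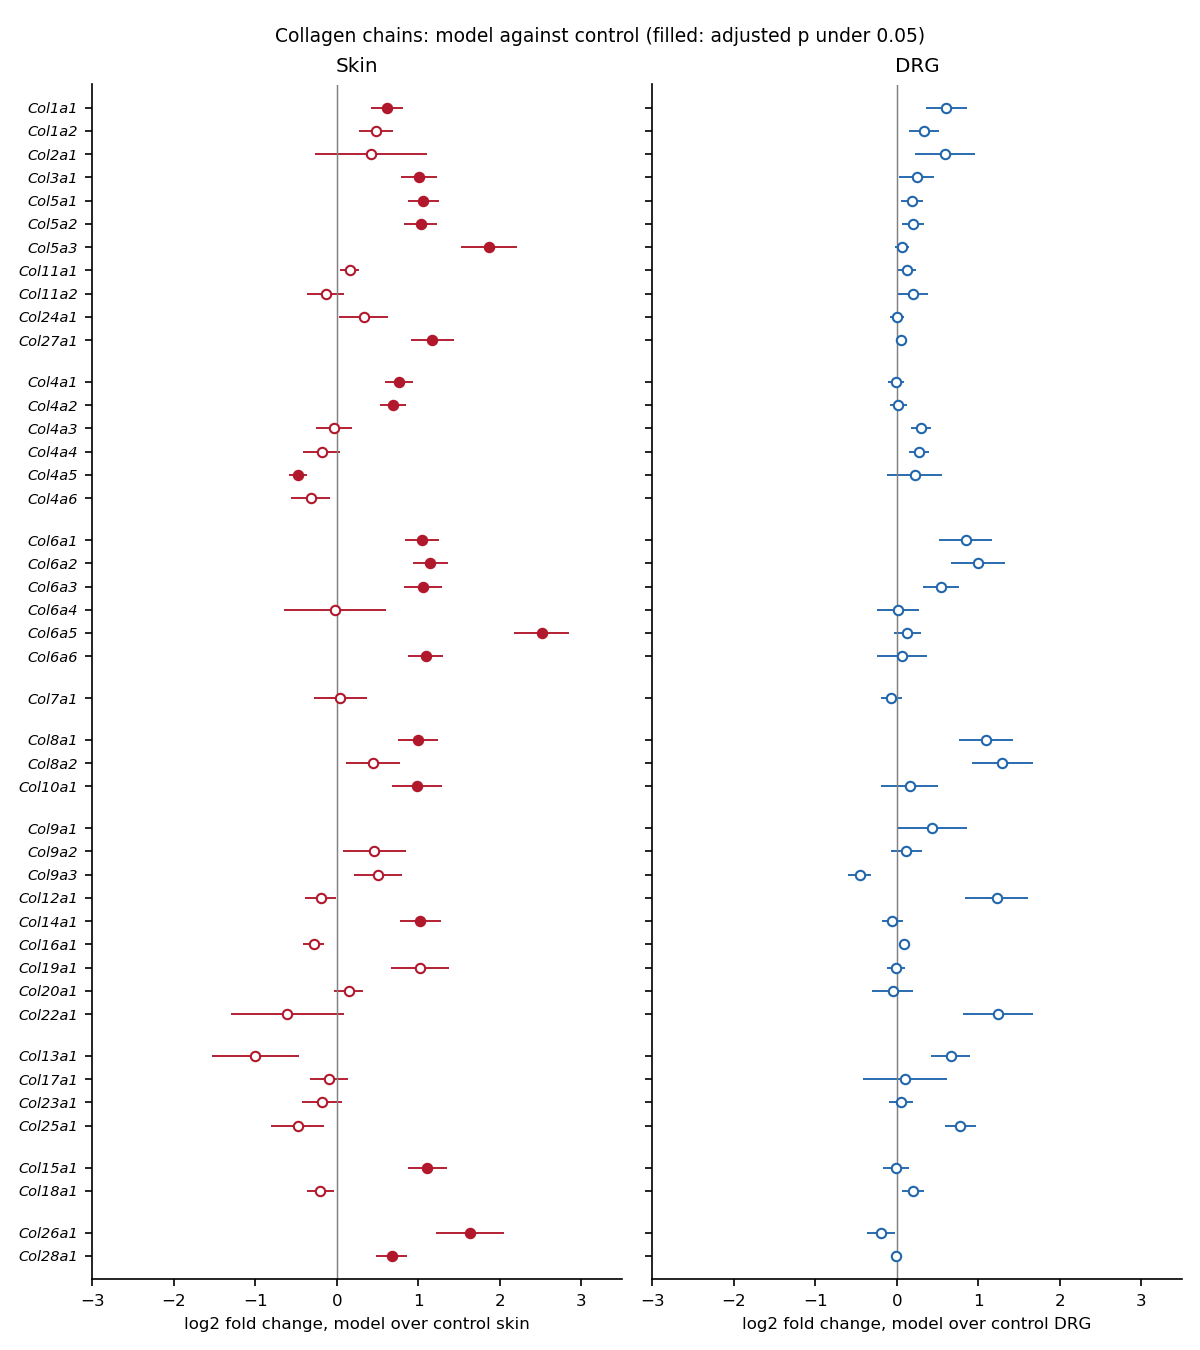
Log2 fold change of each collagen chain (rows, in structural groups), model over control, in skin on the left and DRG on the right; bars are standard errors, filled points passed an adjusted p under 0.05 and 1 untested chain per tissue has no point. In skin 19 filled points lie to the right of 0 and 1, Col4a5, to the left, while in DRG no point is filled.

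Among the fibrillar collagens, 6 of 11 chains rose and none fell. Col3a1, the chain of collagen III that makes up fine fibrils in skin and vessels, had 4239.8 to 8548 CPM in model skin (median 4959), against 1961 to 4027 CPM in control skin (median 2538). The groups did not overlap, and the log2 fold change was 1.01 ± 0.22 (SE, n = 6 each; edgeR adjusted p = 0.00775).

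Col1a1 and Col1a2 encode the chains of collagen I, the main protein of dermal fibrils. Col1a1 had 1303 to 2291 CPM in model skin (median 1436) and 694 to 1348 CPM in control skin (median 989.9), with overlap, and rose by 0.61 ± 0.20 on the log2 scale (SE, n = 6 each; edgeR adjusted p = 0.0465). That call was lost when any of control skin 1, 3, 5 or 6 or model skin 1, 3, 4 or 6 was left out, with adjusted p-values between 0.0511 and 0.10, and also with upper-quartile factors, with no filter and in 1 fit of all 24 libraries (edgeR adjusted p = 0.0537, 0.0602 and 0.0681). Col1a2 had 1919.9 to 3418 CPM in model skin (median 2219), against 1144 to 2505 CPM in control skin (median 1644), a log2 difference of 0.48 ± 0.21 that missed the threshold (SE, n = 6 each; edgeR adjusted p = 0.120). Without control skin 2, which had the highest control value of Col1a2, its log2 fold change was 0.62 and it was called (edgeR adjusted p = 0.0310). The call on collagen I therefore rested on which libraries were counted, whereas that on Col3a1 held under every alternative tried.

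The balance of collagen III to collagen I differed within libraries, where scaling between libraries plays no part. In TPM, a unit that corrects for transcript length as well as library size, Col3a1 was 3.41 to 4.44 times Col1a1 in model skin (median 3.73) and 2.52 to 3.22 times in control skin (median 2.88). These ranges do not overlap. The ratio of Col1a1 to Col1a2 was 0.532 to 0.628 in model skin and 0.474 to 0.561 in control skin, which overlap. In DRG the Col3a1 to Col1a1 ratio was 1.42 to 2.83 in model libraries (median 2.2) and 1.99 to 3.18 in control libraries (median 2.86), so its medians lay in the opposite order to those in skin, with overlapping ranges.

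**Figure D2:**
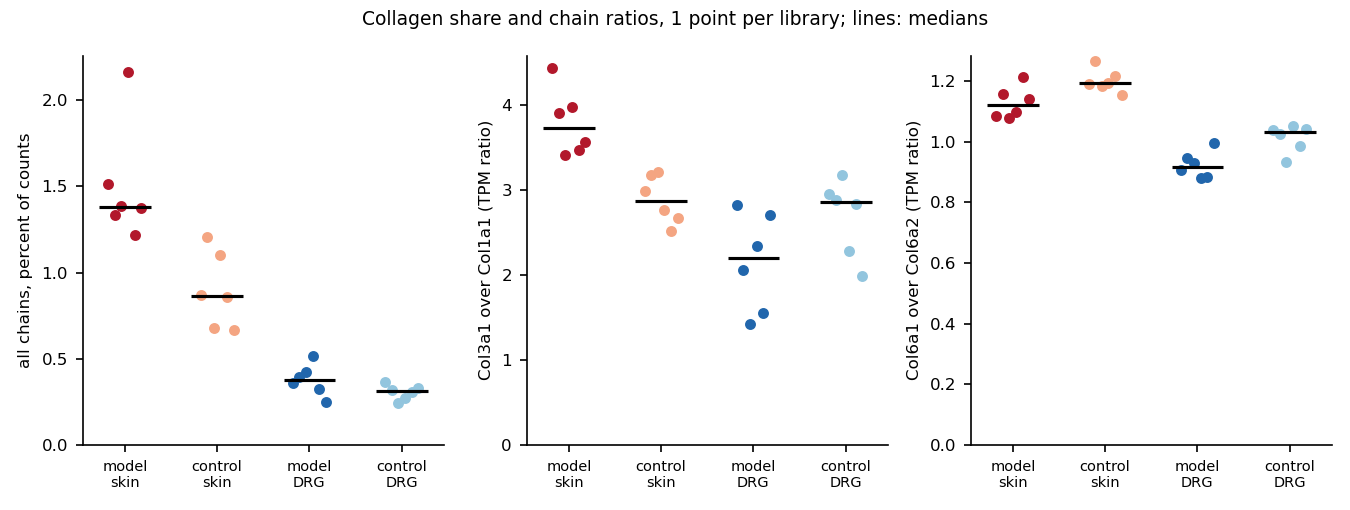
Share of counts taken by all 44 chains (left, percent), the TPM ratio of Col3a1 to Col1a1 (middle) and of Col6a1 to Col6a2 (right) in each library of model skin, control skin, model DRG and control DRG; points are libraries and lines medians. The share and the Col3a1 to Col1a1 ratio separate model skin from control skin with no overlap.

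All 3 chains of collagen V, which sits inside collagen I fibrils and sets their width, rose. Col5a1 had 139 to 327 CPM in model skin (median 216) and 84.7 to 129.7 CPM in control skin (median 108), a log2 fold change of 1.06 ± 0.19 (SE, n = 6 each; edgeR adjusted p = 0.00274). Col5a2 had 356 to 646 CPM in model skin (median 398) and 152 to 301 CPM in control skin (median 209.7), a log2 fold change of 1.03 ± 0.20 (SE, n = 6 each; edgeR adjusted p = 0.00479). Neither chain overlapped between the groups. Col5a2 lies 24624 bases from Col3a1 on chromosome 1, with no protein-coding gene between, and their log2 fold changes were 1.03 and 1.01.

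Col5a3, a chain of collagen V known in mice from fat and muscle, rose most among the fibrillar chains. Model skin 1 to 6 had 579, 334, 284, 288, 84.4 and 187 CPM of Col5a3, against 70.2 to 99.6 CPM in control skin (median 77.7). Model skin 5 lay within the control range and the others above it, and the log2 fold change was 1.87 ± 0.34 (SE, n = 6 each; edgeR adjusted p = 0.00314). Adipocyte markers moved with it: all 5 (Adipoq, Plin1, Lep, Cfd and Fabp4) rose, and their sum was 9665, 2498, 4405, 3495, 1203 and 2306 CPM in model skin 1 to 6 and 1041 to 1276 CPM in control skin. The part of these cells in the result was not tested.

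Col27a1, a fibrillar chain best known from cartilage, had 12.1 to 24.9 CPM in model skin (median 17.0) and 5.14 to 14.7 CPM in control skin (median 6.63). The ranges overlapped through control skin 2 alone, whose 14.7 CPM stood above the 5.14 to 7.72 CPM of the other 5, and the log2 fold change was 1.17 ± 0.27 (SE, n = 6 each; edgeR adjusted p = 0.0101). Col11a1, Col11a2, Col24a1 and Col2a1, minor or cartilage chains with medians of at most 10.5 CPM in either group, were not called.

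Collagen IV, the sheet-forming collagen of basement membranes, changed unevenly: 2 chains rose, 1 fell and 3 were not called. Col4a1 and Col4a2, the chains found in nearly all basement membranes, vessels included, share a promoter region on chromosome 8, where their annotations overlap by 85 bases. Col4a1 had 404 to 793 CPM in model skin (median 602), against 259 to 432 CPM in control skin (median 348), a log2 fold change of 0.76 ± 0.17 (SE, n = 6 each; edgeR adjusted p = 0.0102). Col4a2 had 253 to 487 CPM in model skin (median 375) and 172 to 272 CPM in control skin (median 226), a log2 fold change of 0.69 ± 0.16 (SE, n = 6 each; edgeR adjusted p = 0.0108). Both overlapped slightly, and their TPM ratio was nearly constant, at 1.52 to 1.66 in model skin and 1.47 to 1.55 in control skin.

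Col4a5, which pairs with Col4a6 in the basement membrane under the epidermis, went the other way. It had 26.5 to 38.9 CPM in model skin (median 32.8) and 41.3 to 54.9 CPM in control skin (median 43.4), with no overlap. It fell by 0.48 ± 0.11 on the log2 scale (SE, n = 6 each; edgeR adjusted p = 0.0106). The lower libraries were all of the model, a pattern that 1.44% of all genes showed. Fitted with all 24 libraries together, the log2 fold change was -0.53 and the call was lost (edgeR adjusted p = 0.120). Its neighbour Col4a6 had 0.646 to 1.71 CPM in model skin and 1.12 to 1.83 CPM in control skin, and was not called (log2 -0.32 ± 0.24; edgeR adjusted p = 0.367). Col4a3 and Col4a4, which make the collagen IV of kidney filters with Col4a5, had log2 differences of -0.03 and -0.19 and were not called.

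Collagen VI, whose beaded filaments link fibrils to basement membranes around muscle, fat and nerve, rose in 5 of its 6 chains. Col6a1, Col6a2 and Col6a3 encode its common form. Col6a1 had 301 to 596 CPM in model skin (median 410.2) and 155 to 309 CPM in control skin (median 195). Col6a2 had 240.4 to 523 CPM in model skin (median 356) and 129 to 239 CPM in control skin (median 158). Col6a3 had 336 to 708 CPM in model skin (median 416) and 161 to 346 CPM in control skin (median 196). Their log2 fold changes were 1.04 ± 0.21, 1.15 ± 0.21 and 1.06 ± 0.23 (SE, n = 6 each; edgeR adjusted p = 0.00492, 0.00340 and 0.00820), and only Col6a2 did not overlap.

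Col6a4, Col6a5 and Col6a6 encode alternative chains of collagen VI and lie in a row on chromosome 9, with 27823 bases between Col6a6 and Col6a5 and 27854 between Col6a5 and Col6a4, yet their values differed. Col6a5 rose most of all chains: model skin 1 to 6 had 31.2, 10.1, 17.9, 32.0, 10.01 and 10.4 CPM, against 2.33 to 3.88 CPM in control skin (median 3.29). Every model library was above every control library, and the log2 fold change was 2.51 ± 0.34, or 5.70-fold (SE, n = 6 each; edgeR adjusted p = 0.000595). Col6a6 had 8.40 to 16.2 CPM in model skin (median 11.9) and 3.78 to 7.95 CPM in control skin (median 5.52), a log2 fold change of 1.09 ± 0.22 (SE, n = 6 each; edgeR adjusted p = 0.00497). Col6a4 had 0.557 to 5.91 CPM in model skin (median 0.875) and 0.383 to 2.59 CPM in control skin (median 1.84), overlapped and was not called (log2 -0.02 ± 0.63; edgeR adjusted p = 0.983).

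**Figure D3:**
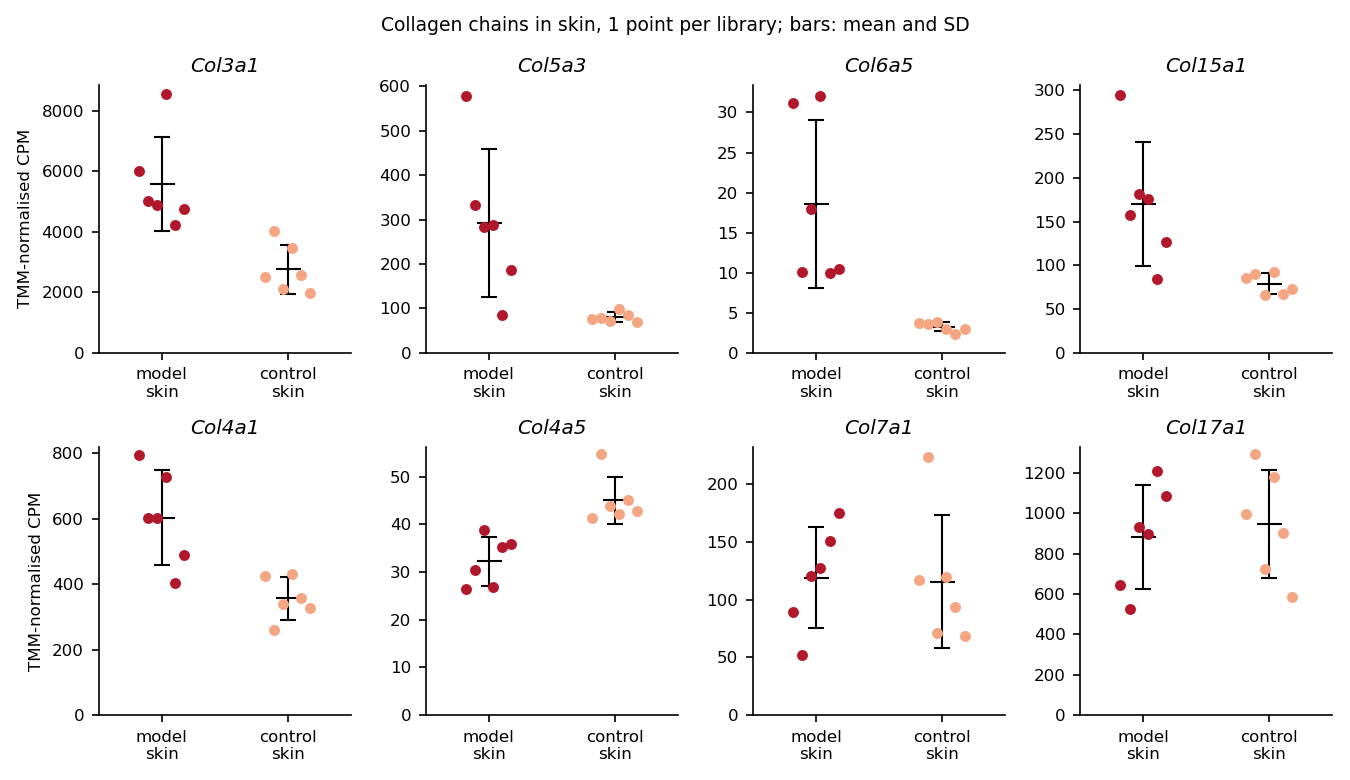
Normalised CPM of 8 chains in each model skin and control skin library (points), with mean and SD (bars). Col3a1 and Col6a5 lie higher in every model library and Col4a5 lower, Col5a3 and Col15a1 spread widely within the model, and Col7a1 and Col17a1 overlap throughout.

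The chains that anchor the epidermis were not called. Col7a1, the chain of the anchoring fibrils below the epidermal basement membrane, had 52.3 to 175 CPM in model skin (median 124), against 68.4 to 224 CPM in control skin (median 105). Col17a1, a transmembrane collagen of the hemidesmosomes of basal keratinocytes, had 527 to 1212 CPM in model skin (median 914) and 584 to 1292 CPM in control skin (median 951). Their log2 differences were 0.04 ± 0.33 and -0.10 ± 0.23 (SE, n = 6 each; edgeR adjusted p = 0.936 and 0.792), and the ranges overlapped almost fully. None of the 4 transmembrane chains was called: Col13a1, Col23a1 and Col25a1 had log2 differences of -1.0, -0.18 and -0.48.

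Of the network collagens, Col8a1, a chain of the layer below vessel endothelium, had 13.2 to 29.3 CPM in model skin (median 18.9), against 6.69 to 15.7 CPM in control skin (median 8.81). It rose by 1.0 ± 0.25 on the log2 scale (SE, n = 6 each; edgeR adjusted p = 0.0145). Its partner Col8a2 was not called (log2 0.44 ± 0.33; edgeR adjusted p = 0.362), but without control skin 2 its log2 fold change was 0.80 and it was called (edgeR adjusted p = 0.0371). Col10a1, the chain of hypertrophic cartilage, passed the test at very low levels, 0.234 to 0.597 CPM in model skin and 0.0850 to 0.270 CPM in control skin (log2 0.98 ± 0.31; edgeR adjusted p = 0.0417). That call was lost without any of control skin 1, 3, 4 or 6 or model skin 1, 2 or 4, with adjusted p-values between 0.0611 and 0.0858, and also with no filter, in limma on log2(TPM + 1) and in 1 fit of all 24 libraries.

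Among 8 FACIT chains tested, which decorate the surface of fibrils, only Col14a1 was called. Col14a1 had 98.0 to 192 CPM in model skin (median 127) and 38.9 to 105 CPM in control skin (median 60.1), a log2 fold change of 1.03 ± 0.25 (SE, n = 6 each; edgeR adjusted p = 0.0138). Col12a1, which binds the same fibrils, had 91.6 to 175 CPM in model skin (median 122) and 97.5 to 194 CPM in control skin (median 139.7), and was not called (log2 -0.20 ± 0.19; edgeR adjusted p = 0.486). Col16a1, found near the border of dermis and epidermis, was not called either (log2 -0.28 ± 0.13; edgeR adjusted p = 0.133), though 1 fit of all 24 libraries called it lower (log2 -0.34; edgeR adjusted p = 0.0165). Col19a1 had 0.360 to 0.742 CPM in model skin and 0.120 to 0.446 CPM in control skin and missed the threshold (log2 1.02 ± 0.35; edgeR adjusted p = 0.0613). It was called without control skin 2 or control skin 5 (edgeR adjusted p = 0.0192 and 0.0468), in 1 fit of all 24 libraries (0.00844) and by DESeq2 (adjusted p = 0.0399).

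The multiplexins, basement membrane collagens whose ends give rise to anti-angiogenic fragments, parted. Col15a1, which lies around capillaries, muscle and fat cells, had 295, 157, 182, 176, 84.3 and 127 CPM in model skin 1 to 6 and 65.6 to 92.6 CPM in control skin (median 79.0). It rose by 1.11 ± 0.24 on the log2 scale (SE, n = 6 each; edgeR adjusted p = 0.00760), with model skin 5 again inside the control range. Col18a1, the source of endostatin, had 174 to 235 CPM in model skin (median 202) and 127 to 284 CPM in control skin (median 247), and was not called (log2 -0.20 ± 0.17; edgeR adjusted p = 0.413). Without control skin 2 the log2 fold change of Col18a1 was -0.33 and it was called lower (edgeR adjusted p = 0.0249).

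Of the other chains, Col26a1 rose at low levels, with 0.432 to 1.71 CPM in model skin (median 0.810), against 0.156 to 0.589 CPM in control skin (median 0.276; log2 1.64 ± 0.42, SE, n = 6 each; edgeR adjusted p = 0.0170). Col28a1, a chain known in mice from glia and sheaths of peripheral nerve, had 10.8 to 13.0 CPM in model skin (median 11.9) and 4.996 to 10.4 CPM in control skin (median 7.23). The groups did not overlap and the log2 fold change was 0.67 ± 0.19 (SE, n = 6 each; edgeR adjusted p = 0.0277). The Col28a1 call was lost without control skin 3, 5 or 6, with adjusted p-values between 0.0575 and 0.0628. Schwann cell markers moved in part with it: 2 of 6 myelinating and 2 of 5 non-myelinating markers rose, and 0 of 5 satellite glia markers were called. In the list of perineurium and meninges markers 3 of 6 genes fell. Their sum was 396 to 680.3 CPM in model skin and 706 to 786 CPM in control skin, with no overlap. In control skin that sum exceeded the 230 to 330 CPM of the myelinating Schwann cell markers. Which cells of skin gave it was not tested. The part of these cells in the result was not tested.

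The 19 chains that rose did not vary independently among libraries. Model skin 4 held the highest model value in 12 of them and model skin 5 the lowest in 14, while control skin 2 held the highest control value in 8 and control skin 4 in 7. Of 10 fibroblast markers 4 rose, with sums of 1666 to 2973 CPM in model skin and 992 to 2311 CPM in control skin. Model skin 4 had the highest sum, but model skin 5, at 2339 CPM, lay above 3 of the other model libraries. Of 6 activated fibroblast markers 2 rose. Their sums overlapped, at 1663 to 2394 CPM in model skin and 1535 to 2403 CPM in control skin. Blood endothelium markers rose in 5 of 6, with sums of 173 to 332 CPM in model skin and 104 to 161 CPM in control skin. Macrophage markers rose in 5 of 5, with sums of 369.9 to 1109 CPM in model skin and 129 to 316 CPM in control skin, and markers of forming muscle in 5 of 5, with 43.6 to 127 CPM in model skin and 0.977 to 6.21 CPM in control skin. Skeletal muscle fibre markers had 0 of 6 called and a median log2 difference of -0.32. Their sums were 1068 to 10469 CPM in model skin and 2745 to 10314 CPM in control skin. No basal keratinocyte marker was called of 5 tested. Hair follicle markers had a median log2 difference of -1.56 with 0 of 7 called, and sums of 1137 to 12638 CPM in model skin (median 5298), against 751 CPM in control skin 2 and 17063 to 25859.5 CPM in the other 5 control skin libraries. The part of these cells in the collagen values was not tested.

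Genes that act on collagen were counted from lists chosen by function, where 14.1% of all genes tested in skin rose and 5.82% fell. Of 15 genes of the hydroxylation and glycosylation of collagen lysines and prolines, partner proteins included, 9 rose in model skin and none fell, with a median log2 fold change of 0.41. Plod1, a lysyl hydroxylase, had 49.8 to 116 CPM in model skin and 25.3 to 43.7 CPM in control skin (log2 1.27 ± 0.20; edgeR adjusted p = 0.00133). Of 11 genes of folding and secretion 5 rose, among them Serpinh1, the collagen-specific chaperone, with 209.9 to 557 CPM in model skin and 134 to 194 CPM in control skin (log2 1.09 ± 0.20; edgeR adjusted p = 0.00326). Of 6 crosslinking enzymes 5 rose, with a median of 1.08. Lox, a lysyl oxidase, had 85.0 to 182 CPM in model skin and 35.4 to 76.3 CPM in control skin (log2 1.17 ± 0.24; edgeR adjusted p = 0.00558). Only 1 of 8 procollagen processing genes rose: Pcolce, which helps cleave the procollagen end (log2 0.98 ± 0.19; edgeR adjusted p = 0.00448).

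The degrading side moved as well. Of 13 genes of collagen degradation and its inhibitors 7 rose and none fell, with a median log2 fold change of 0.66. Mmp12, the macrophage metalloelastase, had 7.30 to 66.6 CPM in model skin and 2.05 to 6.33 CPM in control skin (log2 2.60 ± 0.52; edgeR adjusted p = 0.00507). Timp1, an inhibitor of these proteases, had 15.6 to 119.6 CPM in model skin and 2.78 to 18.7 CPM in control skin (log2 2.86 ± 0.61; edgeR adjusted p = 0.00694). Of 12 collagen receptors tested 4 rose, led by Lair1, an inhibitory receptor of leukocytes, with 3.31 to 16.0 CPM in model skin and 0.254 to 1.15 CPM in control skin (log2 3.92 ± 0.44; edgeR adjusted p = 0.000548). Of 12 fibril-associated proteoglycans and adaptors 2 rose, Bgn, which encodes biglycan (log2 0.84 ± 0.16), and Tnxb (log2 0.64 ± 0.21). Of 15 laminin and other basement membrane genes 5 rose, led by Nid1, which links laminin to collagen IV (log2 1.20 ± 0.21; edgeR adjusted p = 0.00223). Of 10 genes of TGF-beta signalling 2 rose, Tgfbr2 (log2 0.94 ± 0.18) and Tgfb1 (log2 0.64 ± 0.16). The counts of processing, of proteoglycan and adaptor and of TGF-beta genes lay near the share of all genes that rose, 14.1%.

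The same comparison was made in DRG. No chain was called: 0 of 43 tested passed in either direction with edgeR, where 0.0974% of all 19509 genes rose and 0.0% fell. At an unadjusted p under 0.05, 12 chains were higher in model DRG, or 27.9%, against 5.6% of all genes, and 1 was lower, Col9a3, against 3.74%. DESeq2 called 1 chain, Col25a1, and called 0.399% of all genes higher in model DRG. Estimates were above 0 for 34 of the 43, with a median log2 difference of 0.16, against -0.01 over all genes. All chains together took 0.248% to 0.518% of counts in model DRG (median 0.377%) and 0.242% to 0.364% in control DRG (median 0.312%), with overlap. Only Col4a6, with at most 0.186 CPM, was not tested.

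Col25a1, a transmembrane collagen of neurons that in mice is needed for motor axons to reach muscle, stood out among the DRG chains. Model DRG 1 to 6 had 18.6, 29.0, 21.7, 39.3, 18.4 and 15.9 CPM, against 12.6 to 15.6 CPM in control DRG (median 13.8). It was the only chain with no overlap, a pattern of 0.379% of all genes. The log2 difference was 0.78 ± 0.19 (SE, n = 6 each; edgeR adjusted p = 0.272), and DESeq2 gave 0.78 with an adjusted p of 0.00956. Of 8 sensory neuron markers 0 were called, and their sums overlapped, at 9050.4 to 11724 CPM in model DRG and 9765 to 13061 CPM in control DRG. The part of neurons in the Col25a1 values was not tested.

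The other chains with a small unadjusted p had overlapping groups. Those described here outside the fixed set of chains (Col8a2, Col9a3, Col13a1, Col22a1, Col4a3 and Col4a4) were chosen after their values were seen. Col8a2 had 9.26 to 53.4 CPM in model DRG (median 27.5) and 6.40 to 16.5 CPM in control DRG (median 10.3), a log2 difference of 1.29 ± 0.38 (edgeR adjusted p = 0.422). Its partner Col8a1 had 18.7 to 87.7 CPM in model DRG (median 45.8) and 13.8 to 32.9 CPM in control DRG (median 20.9), a log2 difference of 1.10 ± 0.33 (edgeR adjusted p = 0.433). In both chains of collagen VIII model DRG 4 was highest and model DRG 6, the lowest, lay inside the control range.

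Col12a1, a FACIT chain of dense sheaths and fascia, had 172, 215, 151, 342, 109 and 54.5 CPM in model DRG 1 to 6 and 48.7 to 119 CPM in control DRG (median 63.3). Its log2 difference was 1.22 ± 0.39 (SE, n = 6 each; edgeR adjusted p = 0.460). Col22a1, a FACIT chain of tissue junctions such as muscle and tendon, had 1.41 to 7.57 CPM in model DRG (median 4.92) and 1.03 to 3.55 CPM in control DRG (median 1.65), a log2 difference of 1.24 ± 0.43 (edgeR adjusted p = 0.468). Col9a3, a chain of the FACIT collagen IX of cartilage, had 2.57 to 3.36 CPM in model DRG (median 2.80) and 3.31 to 5.57 CPM in control DRG (median 3.48), a log2 difference of -0.46 ± 0.14 (edgeR adjusted p = 0.430). Of the 13 chains with an unadjusted p under 0.05 in DRG, Col9a3 was the only one lower in the model.

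The collagen VI chains of the common form were also among them. Col6a1 had 65.2 to 256 CPM in model DRG (median 135), against 46.2 to 113 CPM in control DRG (median 70.5; log2 0.85 ± 0.32, edgeR adjusted p = 0.494). Col6a2 had 64.2 to 283 CPM in model DRG (median 143), against 48.5 to 110.5 CPM in control DRG (median 66.3; log2 1.0 ± 0.33, edgeR adjusted p = 0.466). Col6a3 had 46.2 to 133 CPM in model DRG (median 80.5), against 42.9 to 70.5 CPM in control DRG (median 57.6; log2 0.54 ± 0.22, edgeR adjusted p = 0.510). The TPM ratio of Col6a1 to Col6a2 was 0.879 to 0.997 in model DRG and 0.932 to 1.05 in control DRG. Col1a1, Col13a1, Col4a3 and Col4a4 had log2 differences of 0.61, 0.66, 0.30 and 0.27, while Col3a1 had 0.24 ± 0.21 with 367 to 924 CPM in model DRG and 350.0 to 639.6 CPM in control DRG (edgeR adjusted p = 0.745).

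**Figure D4:**
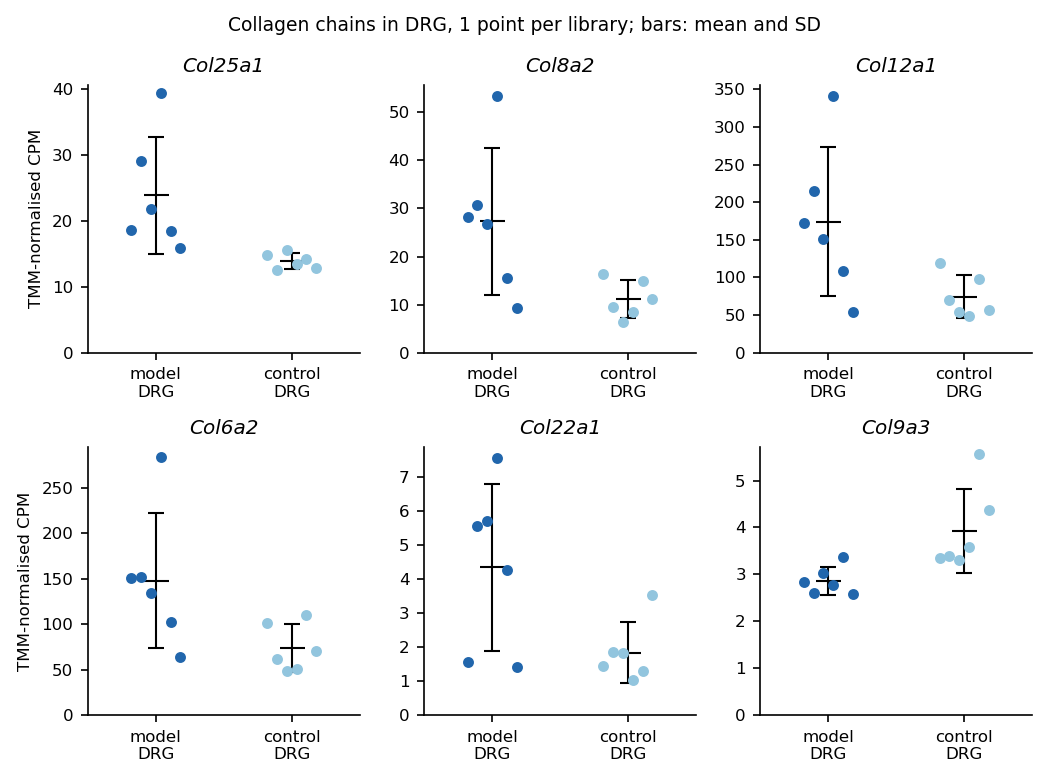
Normalised CPM of 6 chains in each model DRG and control DRG library (points), with mean and SD (bars). Col25a1 is the only chain without overlap, and 1 model library, model DRG 4, is the highest in Col25a1, Col8a2, Col12a1, Col6a2 and Col22a1.

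A pair of libraries set much of this spread. Of the 12 chains higher in DRG at an unadjusted p under 0.05, model DRG 4 held the highest model value in 10 and model DRG 6 the lowest in 10. Without model DRG 4, 7 of the 12 kept an unadjusted p under 0.05, and without model DRG 6, 12 of them did among 17 in all. Markers of the nerve sheath and meninges were also highest in model DRG 4 and lowest in model DRG 6: their sum was 1002, 2759, 1771, 3356, 678 and 649 CPM in model DRG 1 to 6 and 434 to 2095 CPM in control DRG, with 0 of 6 called, and most of it came from Ptgds. Mesothelium markers summed to 12.9 to 67.5 CPM in model DRG and 6.37 to 13.3 CPM in control DRG with 0 of 2 tested called, and bone markers to 13.3 to 58.0 CPM in model DRG and 12.9 to 34.1 CPM in control DRG with 0 of 6 called. Fibroblast markers were not called in 10 tested, with sums of 1170.3 to 1512 CPM in model DRG and 1249 to 1481 CPM in control DRG. The part of tissue around the ganglion in these values was not tested.

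The lists chosen by function were counted in DRG too. In the lists given here, none of 15 hydroxylation, 11 folding and secretion, 8 processing, 6 crosslinking, 11 proteoglycan and adaptor, 15 laminin and other basement membrane, 13 receptor and 11 degradation genes tested was called. Loxl1, a lysyl oxidase of elastic fibres, had a log2 difference of 0.88 ± 0.34 (edgeR adjusted p = 0.494), and Thbs1, a matrix adaptor, one of 2.12 ± 0.61 (edgeR adjusted p = 0.422), both with overlap.

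Whether the model effect itself differed between tissues was tested directly, as the skin log2 fold change minus that in DRG, in 1 fit of all 24 libraries. That fit gives each gene 1 spread for both tissues and scales across them, which is less safe than a fit within 1 tissue. Of 42 chains tested in both tissues, 12 had a larger value in skin (10.6% of all 17251 genes did) and 2 a smaller one (6.43% of all genes). The largest differences on the positive side were Col6a5 at 2.34 ± 0.38, Col26a1 at 1.78 ± 0.43 and Col5a3 at 1.75 ± 0.35 (edgeR adjusted p = 0.000258, 0.00754 and 0.00188). Col27a1 at 1.08, Col15a1 at 1.07, Col14a1 at 1.04, Col19a1 at 1.0, Col5a1 at 0.83, Col5a2 at 0.79, Col4a1 at 0.72, Col28a1 at 0.64 and Col4a2 at 0.62 were also called. Of the 24 fits that each left out 1 library, 9 called Col19a1, 18 called Col5a2, 20 called Col4a2 and 21 called Col28a1. Col5a2 was lost without control skin 3, 5 or 6, model skin 1 or 4 or model DRG 5, Col4a2 without control skin 3 or 6 or model skin 1 or 4, and Col28a1 without control skin 3 or 6 or model skin 4. Among the fits that lost them, the highest edgeR adjusted p was 0.0904, that of Col19a1 without model skin 4. With no filter on low counts Col19a1, Col5a2 and Col4a2 were not called, and limma on log2(TPM + 1) called neither Col19a1 nor Col26a1. Col12a1 at -1.46 ± 0.44 and Col25a1 at -1.30 ± 0.38 were the chains with a smaller value in skin (edgeR adjusted p = 0.0250 and 0.0223), and without model DRG 4 neither was called. Col12a1 was also lost without control DRG 4 and in limma on TPM with either pseudocount, and Col25a1 without control skin 1. In skin Col25a1 was near the floor, with 0.496 to 1.42 CPM in model skin and 0.574 to 2.14 CPM in control skin. Its skin log2 difference, -0.48 ± 0.33, was not called.

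Chains of the common collagen VI form and of collagen I were not among those called. The difference was 0.16 ± 0.38 for Col6a1, 0.11 ± 0.39 for Col6a2 and -0.04 ± 0.32 for Col1a1. Their estimates were 1.04, 1.15 and 0.61 in skin, where they were called, and 0.85, 1.0 and 0.61 in DRG, where they were not. Col3a1 had a difference of 0.73 ± 0.31 that missed the threshold (edgeR adjusted p = 0.102). It was called at 0.90 without control skin 2 and at 0.95 without model DRG 4 (edgeR adjusted p = 0.0294 and 0.0304). Without control skin 2, Col9a3 was also called at 1.06, Col13a1 at -1.81, Col16a1 at -0.43 and Col18a1 at -0.53. Of the 24 fits that each left out 1 library, 4 called Col9a3, 5 called Col13a1, 5 called Col16a1 and 1 called Col18a1. DESeq2 called Col9a3, Col13a1 and Col16a1 as well. Col16a1 was also called with RLE factors, and Col9a3 with factors set within each tissue. Missing the threshold does not show that the effects were equal.

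Control skin was also compared with control DRG, to show the collagens of each tissue before any model effect. Of the 44 chains, 18 were higher in control skin and 17 in control DRG, where 42.0% and 41.3% of all 21998 genes tested were. The chains thus differed between the tissues about as often as genes in general. The largest differences toward skin were those of Col17a1 at 11.98 ± 0.45 on the log2 scale, Col4a6 at 6.65 ± 0.77, Col18a1 at 2.84 ± 0.17 and Col7a1 at 2.46 ± 0.27. In control DRG Col17a1 and Col4a6 were near the floor, at 0.157 to 0.331 CPM and 0.0 to 0.0668 CPM, which limits how well these sizes are known. The Col4a6 value ran from 6.38 to 9.29 when each library was left out. Fibrillar Col3a1, Col1a1 and Col1a2 were also higher in control skin, by 2.44, 2.32 and 1.79. On the DRG side, Col19a1 differed by -5.47 ± 0.28, Col26a1 by -5.44 ± 0.36, Col24a1 by -4.52 ± 0.25, Col9a2 by -4.24 ± 0.33, Col28a1 by -4.14 ± 0.16 and Col25a1 by -3.32 ± 0.29 (control skin minus control DRG). Among these chains the largest edgeR adjusted p was 3.46e-08, that of Col1a2. Col5a3 and Col15a1, which rose in model skin, were lower in control skin than in control DRG, by -1.35 ± 0.25 and -0.48 ± 0.21 on the same scale (edgeR adjusted p = 3.61e-05 and 0.0358). The Col15a1 call was lost without any of control skin 3, 5 or 6 or control DRG 1 or 6, with adjusted p-values between 0.0531 and 0.0926. Without control skin 2, Col4a3 was called lower in control skin (log2 -0.58; edgeR adjusted p = 0.00131).

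**Figure D5:**
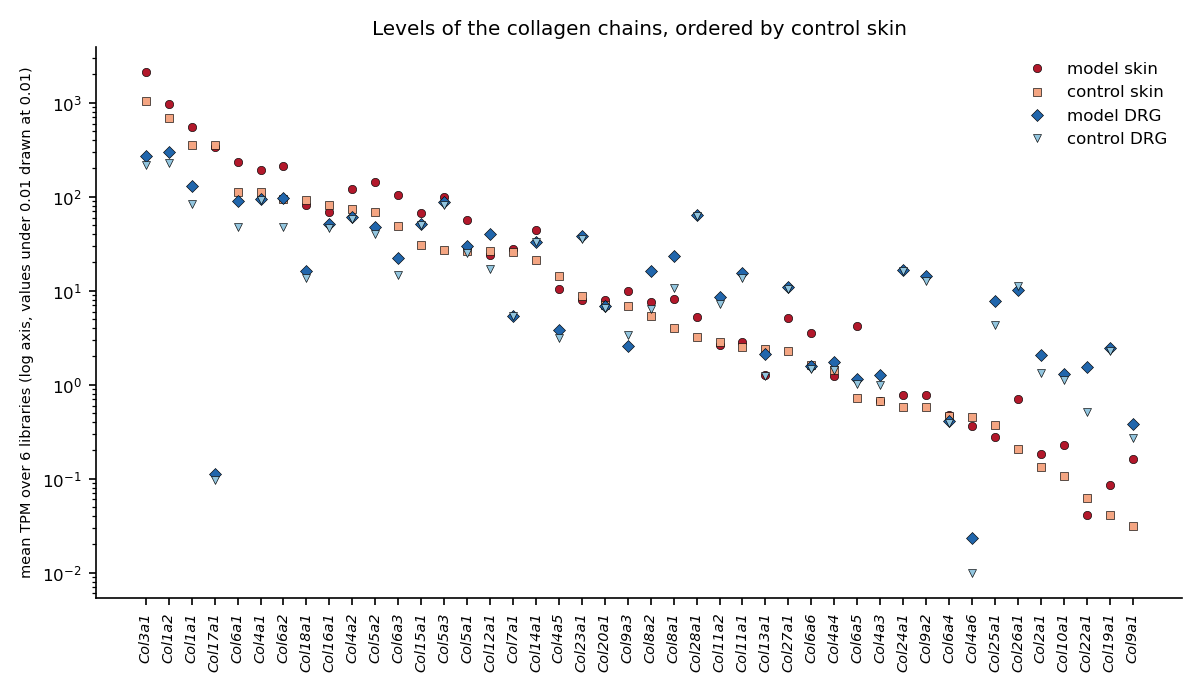
Mean TPM of each collagen chain over 6 libraries in model skin, control skin, model DRG and control DRG (log axis; values under 0.01 drawn at 0.01), with chains ordered by control skin. A few chains carry most of the collagen RNA in skin, while DRG levels are more even and include chains that are nearly absent from skin.

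Levels of different chains were compared per length, in TPM computed by the authors. In control skin the order was Col3a1 at 1033 ± 304, Col1a2 at 681 ± 211, Col1a1 at 358 ± 98.2, Col17a1 at 357 ± 101, Col6a1 at 113 ± 31.3 and Col4a1 at 112 ± 19.8 (mean ± SD, n = 6). Col1a1 and Col17a1, and again Col6a1 and Col4a1, were not separated beyond their spread. Model skin kept the first 4 in the same order, with Col3a1 at 2124 ± 646 TPM, and Col3a1 alone made up 35.5% to 42.0% of all collagen TPM, against 28.9% to 33.9% in control skin.

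In control DRG the order was Col1a2 at 227 ± 45.1, Col3a1 at 219 ± 49.5, Col4a1 at 91.5 ± 13.2, Col1a1 at 83.0 ± 20.5, Col5a3 at 80.9 ± 8.23 and Col28a1 at 62.5 ± 7.01 TPM (mean ± SD, n = 6), where the first pair and the next 3 each overlapped within their spread. The 3 most abundant chains took 57.6% to 67.0% of collagen TPM in control skin, against 37.8% to 42.4% for those of control DRG. At 1 TPM or more there were 32 chains in model skin and 31 in control skin, and 40 in model DRG and 38 in control DRG. Col1a1 lay below Col1a2 in every library, with TPM ratios of 0.314 to 0.628 over both tissues.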

How the data were processed

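PolyA RNA of mouse skin and DRG was sequenced in 24 libraries, 6 in each of 4 groups, which the titles give. Tools listed, per the submitters' processing notes, include HISAT2 2.1.0, StringTie 2.1.3b, Trimmomatic and bcl2fastq 2.20.0, with the build GRCm38/mm10. The counting tool and its strand setting are not given in the sources used here, so reads of overlapping or antisense genes cannot be told apart. The authors deposited read counts per gene as whole numbers without normalization, TPM values (scaled to length and library) and FPKM values, which were not used here.

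Counts were tested in edgeR 4.0.16 (R 4.3.3): filterByExpr, TMM scaling, robust quasi-likelihood fits of each tissue, Benjamini-Hochberg adjustment over all genes tested, and a call at 0.05. The tissue difference and the control comparison used 1 fit of 24 libraries, with 1 spread per gene and scaling shared by both tissues, which is less safe than within 1. CPM values are TMM-normalised. DESeq2 1.42.0 and limma 3.58.1 served as alternatives. The tests were also run on simulated data, where DESeq2 made more false calls than edgeR in every comparison. It also recovered more of the simulated 1.5-fold and 2-fold changes in every comparison. The simulation used edgeR's filter and its estimates of spread, so it cannot rank the tools on the real counts. The fixed set of chains described by library holds those called in the skin, DRG or tissue difference fit plus 10 set by name. Some other chains are described as well, in DRG after their values were seen. At most 3 genes a list by smallest p are named. Members and lists were chosen with earlier results of these data known. Counts differed beyond sampling noise in each of 60 library pairs within groups (chi-square per gene at least 9.13). Symbols of all 44 chains matched RefSeq, whose promoter table covered 35. The count of 1 list in DRG is not reported here.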

Additional observations from a re-analysis of the deposited data

Results flagged for a closer look

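A library stood far from the others of its group in 10 of 112 groups of 6 values checked, or 8.93%, where chance gives about 1 in 20. Model skin 4 was the highest in Col1a1 (2291 CPM, the others 1303 to 1532), Col1a2 (3418 CPM, the others 1919.9 to 2397) and the collagen share of counts (2.16%, the others 1.22% to 1.52%). Control skin 2 was the highest in Col4a5 (54.9 CPM, the others 41.3 to 45.1), Col7a1 (224 CPM, the others 68.4 to 119.6) and Col27a1 (14.7 CPM, the others 5.14 to 7.72). Control skin 3 was the highest in Col26a1 (0.589 CPM, the others 0.156 to 0.299). In DRG, control DRG 6 was the highest in Col6a6 (8.71 CPM, the others 2.52 to 4.64), control DRG 3 the lowest in Col7a1 (14.7 CPM, the others 20.4 to 22.2) and model DRG 5 the highest in Col10a1 (3.85 CPM, the others 0.766 to 1.60).

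The model effect differed between skin and DRG in 14 chains by edgeR's test of the difference itself, as log2 values of skin minus DRG. It was larger in skin for Col4a1 (0.72), Col4a2 (0.62), Col5a1 (0.83), Col5a2 (0.79), Col5a3 (1.75), Col6a5 (2.34), Col14a1 (1.04), Col15a1 (1.07), Col19a1 (1.0), Col26a1 (1.78), Col27a1 (1.08) and Col28a1 (0.64). It was smaller in skin for Col12a1 (-1.46) and Col25a1 (-1.30). Col12a1 and Col25a1 were not called on their own in either tissue by edgeR, and nor was Col19a1.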

How the results depend on the processing

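The alternatives gave 1198 values for 47 results. These were the calls in skin, those in the tissue difference, and the DRG chains with an unadjusted p under 0.05. Of the values, 1127 kept their direction and side of the threshold, 69 no longer passed, 1 newly passed and 1 changed sign. The DRG results began uncalled, so keeping their side means that they stayed uncalled. Chains not called in skin or in the tissue difference are outside this count. The sign changed for the tissue difference of Col19a1, at -0.0080 in limma on log2(TPM + 1), and the cause was not tested. The value that newly passed was Col25a1 in DRG under DESeq2, so that 1 chain was called higher in model DRG there and 0 by edgeR. Chains called higher in model skin numbered 16 to 22 when each library was left out in turn, and those called lower 1 to 2, with 2 without control skin 2. The tissue difference counted 10 to 19 chains when each library was left out. Chains with a smaller value in skin numbered 0 to 5, with 5 under DESeq2 and without control skin 2, and 0 without model DRG 4. Over all chains and alternatives, 5 called and 5 uncalled chains changed their call at least once in skin, 7 and 8 in the tissue difference, 4 and 4 between control tissues, and 1 uncalled chain in DRG. Replicate numbers gave no sign of pairing: correlations between same-numbered libraries ran from -0.513 to 0.257, and 3 of 24 pairs were their libraries' best match. With the replicate block, 17 chains rose and 1 fell in skin, 0 were called in DRG, 12 differed between tissues and 36 differed between control skin and control DRG, against 19, 1, 0, 14 and 35 without it. The block ended the calls on Col10a1 and Col26a1 in skin (adjusted p = 0.136 and 0.0721), those on Col12a1, Col19a1 and Col25a1 in the tissue difference, and that on Col13a1 between control tissues. It added calls on Col3a1 in the tissue difference (adjusted p = 0.0436) and on Col5a1 and Col14a1 between control tissues. Calls on chains under about 1 CPM are limited by depth, and intervals between libraries by 6 libraries a group.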
